A study of Sus scrofa with 9 samples.

Results

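The metalloproteinase genes described here are the matrix metalloproteinases (MMPs), the ADAMs, the ADAMTS and ADAMTS-like (ADAMTSL) genes and the tissue inhibitors of metalloproteinases (TIMPs). They were chosen by gene symbol alone, and 65 of the 19173 gene names in the deposited tables matched, namely 20 MMPs, 17 ADAMs, 19 ADAMTSs, 5 ADAMTSLs and 4 TIMPs. Mesenchymal stem/stromal cells (MSCs) were grown from the subcutaneous abdominal fat of female domestic pigs aged 3 months when the diets began. Lean pigs were fed standard chow. Obese pigs were fed a diet rich in fat and fructose, and both diets lasted 16 weeks. 5-hydroxymethylcytosine (5hmC), an oxidized form of methylated cytosine, was captured from sheared DNA with an antibody and sequenced (hMeDIP-seq). There were 3 libraries each of Lean-MSCs (numbered 7 to 9), untreated Obese-MSCs (1 to 3) and Obese-MSCs given vitamin-C at 50 µg/mL for 48 h (4 to 6). Vitamin-C is a cofactor of the TET enzymes, which make 5hmC, and the growth medium of all groups already contained some of it. All groups were cultured primary cells, and the labels do not tie a treated to an untreated culture of the same animal, nor say that libraries of a group came from different animals.

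Values are normalized counts of 5hmC reads over the exons of a gene, so they describe a DNA mark and not expression or protein. They grow with exon length and are not compared between genes as levels per base. One table holds Obese-MSCs and Lean-MSCs, and a second, normalized separately, holds treated and untreated Obese-MSCs. In it the values of the same untreated libraries were 1.11, 1.13 and 1.1 times those of the first, as medians over genes, so comparisons stay within a table. The libraries sum to 494566 to 522269 normalized counts in the first table and 547242 to 593846 in the second, and the metalloproteinase genes hold 0.534% to 0.653% and 0.6% to 0.668% of these sums. Raw read depth is not known from these values. Of the cell markers named in the study's methods, NT5E, THY1 and ENG had 5hmC in every library (12.4 to 67.4 in the first table). But so did CD34 and PTPRC, which such cells should lack on their surface (13.4 to 68.5), and only CD14 was near 0 (0 to 4.49). The mark over these exons therefore gave no check of cell type, and none of the 6 met the criteria below in either comparison.

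MMPs cut collagens, gelatin and other matrix proteins, and most are secreted as inactive precursors. ADAMs are membrane proteins, several of which shed growth factors and cytokines from the cell surface. ADAMTSs are secreted enzymes that process procollagen or cut proteoglycans such as aggrecan and versican, and ADAMTSLs share their domains but have no protease domain. TIMPs block these enzymes. Matrix turnover by this system accompanies expansion of fat tissue, and MSCs both secrete and respond to it.

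RefSeq places the 65 genes on 16 chromosomes of Sscrofa11.1. The span of 25 overlaps another annotated gene, a protein-coding one for 12. TIMP1 (chromosome X, 42103251 to 42106289) lies in the span of SYN1, TIMP3 (chromosome 5, 12185816 to 12242599) in that of SYN3, and TIMP4 (chromosome 13, 68179803 to 68191199) in that of SYN2, all synapsin genes. The span of TIMP2 overlaps that of the coding gene CEP295NL, and the span of ADAM17 that of IAH1. Whether reads over exons shared by overlapping genes were kept is not given in the sources used here.

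Obese-MSCs were first compared with Lean-MSCs, to ask whether diet-induced obesity changed 5hmC in these genes, 64 of which were in the table. A gene was called when a two-sided test with equal variances gave an unadjusted p of 0.05 or less and the ratio of group means was at least 1.4 or at most 0.7. MMP27 and ADAMTSL5 met these criteria, both with lower 5hmC in Obese-MSCs, and no member met them with higher 5hmC. These 2 of 64 are a share of 3.12%, beside 4.5% of all 18933 genes in both directions and 2.43% in the low direction, which is near the background. In limma, fitted to log2(value + 1) of the 15146 genes whose mean lay in the upper 80%, 0 of 56 tested members passed an adjusted p of 0.05, as did 0% of all genes, and the smallest adjusted p of a member was 0.668. At an unadjusted limma p of 0.05, 5 members (8.93%) passed beside 6.81% of all genes, namely ADAM8, ADAM19, ADAMTS7, ADAMTS16 and MMP2. This list depended on the fit. Under quantile normalization 4 members passed, and in a fit without a trend of spread on mean only 1, ADAMTS16.

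MMP27, a little-studied MMP, spans 33366342 to 33379828 on chromosome 9. Its 5hmC was 7.02, 5.67 and 7.04 in Obese-MSCs and 11.3, 10.9 and 8.24 in Lean-MSCs. All Obese libraries were below all Lean libraries, with means of 6.58 ± 0.789 and 10.1 ± 1.66 (SD, n = 3 each) and a log2 ratio of -0.62 (limma adjusted p = 0.829). ADAMTSL5, a secreted protein with no protease domain, spans 76966155 to 76975555 on chromosome 2. Its 5hmC was 19.3, 23.7 and 18.9 in Obese-MSCs and 27.2, 33.8 and 27.7 in Lean-MSCs. The groups again did not overlap, with means of 20.7 ± 2.67 and 29.6 ± 3.64 and a log2 ratio of -0.52 (limma adjusted p = 0.779). Leaving out each library in turn kept the direction of both, between -0.75 and -0.53 for MMP27 and between -0.63 and -0.41 for ADAMTSL5, but MMP27 still met the criteria in 1 of the 6 cases and ADAMTSL5 in 2.

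For 8 members (12.5%), beside 11.8% of all genes, every Obese library lay on the same side of every Lean library. ADAM12, ADAM19, ADAMTS6, ADAMTS7 and ADAMTS17 were higher in Obese-MSCs, beside 5.7% of all genes that did so, and MMP27, ADAMTSL1 and ADAMTSL5 lower, beside 6.06%. The exact permutation test (two-sided) gives 0.1 for each, which is the smallest p that 3 against 3 libraries allow. ADAM12, a shedding enzyme on chromosome 14 (135302188 to 135682144), had the highest values of the family, with 541, 470.3 and 454 in Obese-MSCs and 385, 438 and 426 in Lean-MSCs. The lowest Obese value was just above the highest Lean value, and the log2 ratio was 0.23 (limma adjusted p = 0.821). ADAMTS7, which cuts cartilage oligomeric matrix protein, had 379, 344 and 295 in Obese-MSCs and 172, 217 and 288 in Lean-MSCs. Lean library 9 almost reached Obese library 3, and the log2 ratio was 0.59 (limma adjusted p = 0.668). ADAM19, a relative of ADAM12 that processes neuregulin, had 79.7, 119.6 and 84.9 in Obese-MSCs and 61.1, 69.5 and 53.4 in Lean-MSCs. Its log2 ratio was 0.63 (limma adjusted p = 0.679). The spans of ADAM12, ADAM19, ADAMTS6 and ADAMTS7 overlap those of the coding genes FANK1, NIPAL4, CENPK and TBC1D2B. ADAMTS6, ADAMTS17 and ADAMTSL1, named here because their libraries did not overlap, had log2 ratios of 0.29, 0.41 and -0.33.

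**Figure D1:**
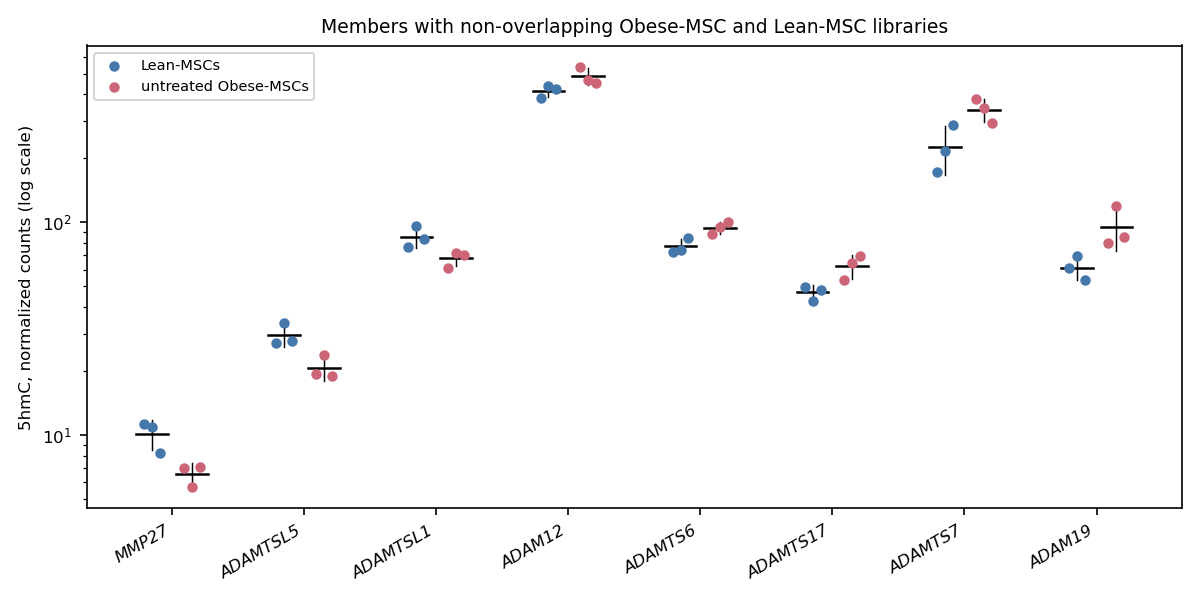
5hmC in normalized counts (log scale) for the 8 members whose Obese-MSC and Lean-MSC libraries did not overlap, ordered by log2 ratio. Points are the 3 libraries of each group, horizontal lines the means and vertical lines the SD. MMP27, ADAMTSL5 and ADAMTSL1 lie lower in Obese-MSCs and the other 5 higher, and ADAMTS7 nearly overlaps between Lean library 9 and Obese library 3.

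The gelatinases, which cut denatured collagen and type IV collagen, had higher means in Obese-MSCs. MMP2 had 149, 66.2 and 74.6 in Obese-MSCs and 71, 61.6 and 49.3 in Lean-MSCs. Obese library 1 stood far above the rest and the other Obese libraries lay within or just above the Lean range, with a log2 ratio of 0.67 (limma adjusted p = 0.728) that was 0.22 without that library. MMP9 had 19.1, 13.3 and 7.39 in Obese-MSCs and 6.83, 10.9 and 5.16 in Lean-MSCs, with a log2 ratio of 0.79 (limma adjusted p = 0.792). MMP14, the membrane-bound enzyme that activates the MMP2 precursor, had 139, 83.3 and 81.6 in Obese-MSCs and 71.4, 102 and 68.9 in Lean-MSCs. Library 1 was again the highest, and the log2 ratio of 0.33 (limma adjusted p = 0.87) was 0.03 without it. For all 3 genes the groups overlapped.

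The inhibitors had log2 ratios close to 0. TIMP1 had 34.4, 27.5 and 29.5 in Obese-MSCs and 31.6, 31.8 and 24.7 in Lean-MSCs, a log2 ratio of 0.05. TIMP2 had 33.6, 31.3 and 26.1 against 25.1, 40.7 and 32.9, a log2 ratio of -0.12. TIMP3, which stays bound to the matrix, had 28.4, 15.1 and 23.5 against 20.3, 17.9 and 21.6, a log2 ratio of 0.16. TIMP4 had 32.4, 42.7 and 38.8 against 39.6, 43.7 and 40.1, a log2 ratio of -0.12. The groups overlapped for all 4, and limma gave differences on its log2(value + 1) scale of 0.05 (SE 0.26), -0.10 (SE 0.27), 0.12 (SE 0.30) and -0.12 (SE 0.25). These errors leave room for differences of a size that the criteria would call.

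ADAM10 and ADAM17, the main sheddases of Notch and of tumor necrosis factor, had means of 16.2 ± 2.47 and 43.5 ± 6.91 in Obese-MSCs and 12.6 ± 4.67 and 32.2 ± 6.88 in Lean-MSCs. Their log2 ratios of 0.37 and 0.43 had limma adjusted p of 0.876 and 0.812. Of the 9 ADAMs grouped as sheddases, 8 had the higher mean in Obese-MSCs (median log2 ratio 0.23), or 7 under quantile normalization, beside 50.7% of all genes in the upper 80%, and none met the criteria. The largest ratio among them was that of ADAM8, found after its values were seen, with 17.1, 23.8 and 7.49 in Obese-MSCs and 2.47, 10.9 and 8.21 in Lean-MSCs. Its log2 ratio was 1.17 with overlapping groups (limma adjusted p = 0.703).

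Among the ADAMTSs, the proteoglycan-cutting ADAMTS1, ADAMTS4 and ADAMTS5 had log2 ratios of 0.33, 0.19 and 0.21. ADAMTS4 had 57.7, 49.3 and 54.1 in Obese-MSCs and 40.9, 51.6 and 48.3 in Lean-MSCs, and the groups overlapped. All 3 procollagen N-proteinases, ADAMTS2, ADAMTS3 and ADAMTS14, had higher means in Obese-MSCs, with log2 ratios from 0.12 to 0.48. Their groups overlapped, and the limma adjusted p ranged from 0.825 to 0.971. ADAMTS16 had 10.7, 21 and 8.52 in Obese-MSCs and 19.4, 27.8 and 22.6 in Lean-MSCs. Obese library 2 lay inside the Lean range, and the log2 ratio was -0.80 (limma adjusted p = 0.694). ADAMTS13, which cuts von Willebrand factor, was among the lowest members, with means of 2.51 ± 0.299 and 2.43 ± 1.47.

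Over the 56 members in the upper 80% by mean, 34 (60.7%) had the higher mean in Obese-MSCs and the median log2 ratio was 0.095, beside 50.7% and 0.0062 for all genes. The other 8 members were below that filter, and 5 had means of 3 or less in both groups. Some roles leaned the other way. Among members past the filter, the higher mean lay in Obese-MSCs for 1 of 4 ADAMTSLs and 2 of 5 membrane-type MMPs. It did so for 0 of 2 ADAMs of the male germ line. Of the genes grouped only as other ADAMTSs or other MMPs, 3 of 8 and 1 of 4 did so. Ratios of 51 of the 64 members lay between 0.7 and 1.4. The ratio was 1.4 or more for 8 (12.5%), beside 15.9% of all genes, and 0.7 or less for 5 (7.81%), beside 13.5%. ADAM23, a brain ADAM without protease activity and the third highest member, had means of 172 ± 28.3 and 171 ± 27.7, a log2 ratio of 0.01. ADAM7, an epididymal ADAM, had a log2 ratio of -0.39, MMP19 one of -0.18, and the testis genes ADAM5 and ADAM30 had means of 2.07 or less in both groups.

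**Figure D2:**
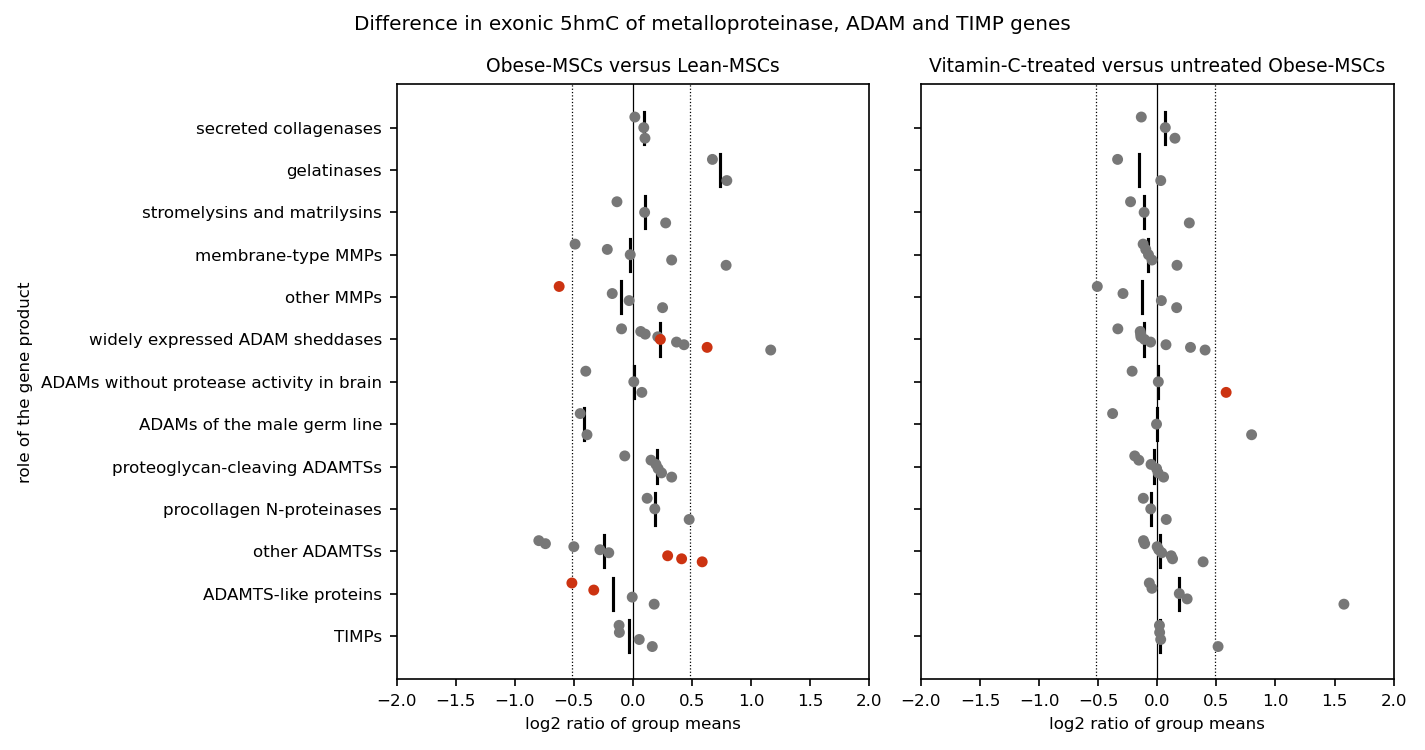
log2 ratio of group means (horizontal axis) for members in the upper 80% by mean, grouped by role, for both comparisons. Each point is a gene, red where the 2 groups did not overlap, black bars are group medians, and dotted lines mark ratios of 0.7 and 1.4. TIMPs lie within -0.12 to 0.16 in Obese-MSCs versus Lean-MSCs, and 8 of 9 ADAM sheddases lie above 0 there (7 under quantile normalization) and 3 of 9 with vitamin-C (2 under quantile normalization).

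For some MMPs, libraries of the same group differed more than the diets did. On chromosome 9, 8 MMP genes lie side by side within 402 kb (33214590 to 33616700) and are the only RefSeq coding genes there, in the order MMP7, MMP20, MMP27, MMP8, MMP1, MMP3, MMP12 and MMP13. Their pattern was picked out after the values were seen. MMP1, the interstitial collagenase, had 69.2, 9.26 and 10.1 in Obese-MSCs and 14, 36.7 and 36.9 in Lean-MSCs. Obese library 1 was 7.15 times the mean of the other Obese libraries, and the Lean values lay between the extremes. The log2 ratio of 0.02 became -1.59 without Obese library 1. With all libraries the limma difference, on its log2(value + 1) scale, was -0.47 (SE 0.54). MMP3, a stromelysin that RefSeq also lists under the name MMP10, had 53.8, 5.47 and 19.2 in Obese-MSCs and 9.49, 21.8 and 42 in Lean-MSCs. Its highest Obese library was 9.84 times its lowest. The log2 ratio was 0.10, but the limma difference had the opposite sign, at -0.17 (SE 0.56). MMP13, collagenase-3, whose span overlaps a non-coding gene, had 37.4, 13.1 and 22.5 against 23.7, 27.8 and 16.5. Its log2 ratio was 0.10 and its limma difference 0.01 (SE 0.35). For MMP1 and MMP3 the within-group SD of log2(value + 1) was above that of 99.9% of the 9467 genes in the upper 50% by mean, and for MMP13 above 90.8%.

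Obese-MSCs given vitamin-C showed a like spread in the second table, which holds the same untreated libraries again. MMP1 had 83.4, 15.5 and 9.46 in treated libraries 4, 5 and 6 and 75.5, 11 and 11.3 in untreated libraries 1, 2 and 3. Treated library 4 was 6.68 times the mean of the other treated libraries. MMP3 had 73.4, 7.13 and 24 in treated and 58.8, 6.68 and 21.2 in untreated libraries, so that 4 and 1 were highest, 6 and 3 intermediate and 5 and 2 lowest. MMP13 had 42.2, 24 and 18.6 against 41, 15.2 and 24.8, with 4 and 1 again highest. Vitamin-C gave log2 ratios of 0.15, 0.27 and 0.07 for MMP1, MMP3 and MMP13, with limma SEs of 0.71, 0.70 and 0.38 for the differences in an unpaired fit. In the same cluster MMP7, matrilysin, was also highest in libraries 1 and 4 (18.3 and 17.1, beside 8.26 to 13 in the others). MMP20, the tooth enamel enzyme enamelysin, had 41.2 in treated library 4 and 16.8 to 25.1 in the other libraries of the second table. MMP8, neutrophil collagenase, was highest in library 4 among the treated (19.1, 8.22 and 13.4) but not in library 1 among the untreated (15.6, 16.1 and 13.1). MMP12, macrophage elastase, had 7.03, 1.79 and 2.63 in treated and 2.55, 3.22 and 3.83 in untreated libraries, so library 4 was again the highest and library 1 the lowest of its group. MMP27 was highest in treated library 5 and set neither library 4 nor library 1 apart.

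Neighbouring genes ranked the libraries differently. BIRC3, an apoptosis inhibitor that starts 211 kb before the cluster, had 129.6, 163.9 and 82.3 in untreated and 138.8, 150.1 and 81.2 in treated libraries, so that library 1 was not the highest. YAP1 had 29.9, 51.4 and 60.3 in untreated libraries, the lowest in library 1, and 50.3, 62.1 and 42.8 in treated ones. Beyond the cluster DYNC2H1 had 14.5, 22.5 and 26.8 in untreated libraries, again lowest in library 1, and 24.1, 27.9 and 11.4 in treated ones. For YAP1 and DYNC2H1 treated library 4 was intermediate, so the treated libraries did not repeat that order. TMEM123, which starts 130 kb before it, ranged from 19.8 to 26 over all 6 libraries. DCUN1D5 was the exception in treated library 4, with 13.1 beside 3.62 and 3.46 in the other treated libraries, but had 6.88, 6.46 and 8.93 in the untreated ones. Over 9496 genes in the upper 50%, deviations from the group mean correlated with r = 0.39 between libraries 4 and 1, 0.53 between 5 and 2, and 0.28 between 6 and 3, and with r from -0.30 to -0.10 for the other pairs. These are correlations across genes, which are not independent, and deviations in a group of 3 sum to 0. The labels do not say which cultures share an animal, so whether the animal, the culture or the library goes with the MMP1 and MMP3 levels cannot be told apart.

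**Figure D3:**
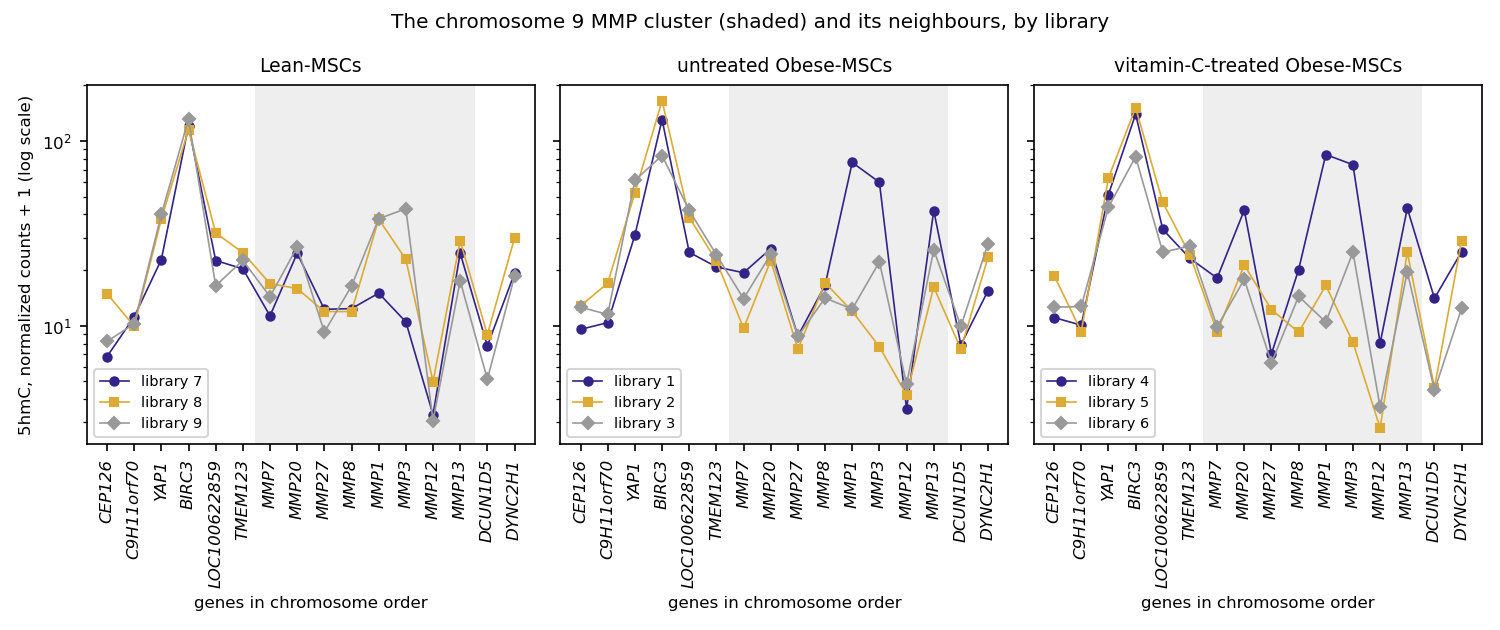
5hmC in normalized counts + 1 (log scale) of the 8 MMP genes of the chromosome 9 cluster (shaded) and 8 neighbouring coding genes in chromosome order, with 1 panel per group and 1 line per library. Lean-MSC values come from the first table and the others from the second. Libraries 1 and 4 stand highest at MMP1, MMP3 and MMP13 and not at BIRC3 or YAP1.

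The treated cultures were compared with untreated Obese-MSCs to ask whether vitamin-C changed 5hmC in Obese-MSCs, and all 65 genes were in the table. No member met the criteria, beside 1.92% of all 18992 genes, and 0 members had an unadjusted p of 0.05 or less in the equal-variance test, beside 2.64%. In limma 0 of 58 tested members passed an adjusted p of 0.05, as did 0% of 15194 genes, and 0 passed an unadjusted p of 0.05, beside 0.974% of all genes. Of the 58 members in the upper 80% by mean, 28 (48.3%) had the higher mean with vitamin-C, beside 50.2% of all genes, and the median log2 ratio was -0.0036, beside 0.0017. Ratios of 58 of the 65 members lay between 0.7 and 1.4, and 1 (1.54%), the low member ADAM30, was at 0.7 or below, beside 8.8% of all genes. The ratio was 1.4 or more for 6 (9.23%), beside 12.9% of all genes. With 3 libraries per group, a missed threshold does not show that a gene did not respond.

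Treated and untreated libraries did not overlap for 1 member (1.54%), beside 5.91% of all genes, or 3.24% in the same direction. This was ADAM11, a brain ADAM without protease activity, with 12.1, 11 and 18 in treated and 7.7, 10.7 and 9.09 in untreated libraries. The lowest treated value was just above the highest untreated value. The log2 ratio was 0.58, and the limma difference was 0.52 (SE 0.35).

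TIMP2 had the highest log2 ratio (0.51) among members in the upper 50% by mean, with 31.2, 41.6 and 72 in treated and 37.2, 35.4 and 28.8 in untreated libraries. Treated library 6 alone stood high while library 4 lay inside the untreated range, and the log2 ratio ranged from 0.11 to 0.75 over the 6 fits without a library. The ratio of means was 1.43, past the size criterion, but the p criterion was not met (limma difference 0.42, SE 0.31). The log2 ratios of TIMP1, TIMP3 and TIMP4 were 0.02, 0.02 and 0.03, with limma SEs of 0.27, 0.36 and 0.28. TIMP1 had 30.2, 38.9 and 34 in treated and 38.1, 31.1 and 32.5 in untreated libraries.

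MMP28, called epilysin, had the lowest log2 ratio of the members in the upper 50% by mean, with 19.1, 20.4 and 18.8 in treated and 33, 30 and 19.9 in untreated libraries. Untreated library 3 lay within the treated range, and the log2 ratio was -0.51 (limma difference -0.46, SE 0.30). ADAM33 had 104, 57.2 and 117 in treated and 69.1, 58 and 82.5 in untreated libraries, a log2 ratio of 0.40. ADAM19 had 59.4, 100.1 and 92.3 against 88.8, 135 and 93.5, a log2 ratio of -0.33. ADAMTS16 had a log2 ratio of 0.39, and MMP19 one of -0.29. For all 4 the groups overlapped.

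The genes called in Obese-MSCs versus Lean-MSCs were not called with vitamin-C. MMP27 had 6.04, 11.2 and 5.28 in treated and 7.79, 6.46 and 7.75 in untreated libraries, a log2 ratio of 0.03. ADAMTSL5 had 24.1, 27.8 and 30.5 in treated and 21.5, 26.8 and 20.9 in untreated libraries, a log2 ratio of 0.25 (limma difference 0.25, SE 0.28), with overlapping groups. Both comparisons use the same untreated libraries, so their differences are not independent of each other.

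MMP2 had 108, 76.7 and 144 in treated and 165, 75.2 and 82.1 in untreated libraries, a log2 ratio of 0.03. MMP9 had 15.1, 12 and 7.93 against 21, 15 and 8.26, a log2 ratio of -0.34. MMP14 and ADAM12 had log2 ratios of -0.07 and 0.07, with limma SEs of 0.25 and 0.16. ADAM10 and ADAM17 had -0.11 and -0.14, and 3 of the 9 ADAM sheddases had the higher mean with vitamin-C, or 2 under quantile normalization, where ADAM12 changed sign. ADAMTS1, ADAMTS4, ADAMTS5 and ADAMTS7 had -0.05, 0.05, -0.01 and 0.13. Groups overlapped for every gene of this paragraph. Of the lowest members, MMP23B, listed in this table only, was at 0 in all untreated libraries and at 1.9 in treated library 5, its highest value, ADAM30 did not exceed 2.42 in any library, and ADAMTS13 had means of 2.49 ± 0.99 and 2.8 ± 0.354.

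**Figure D4:**
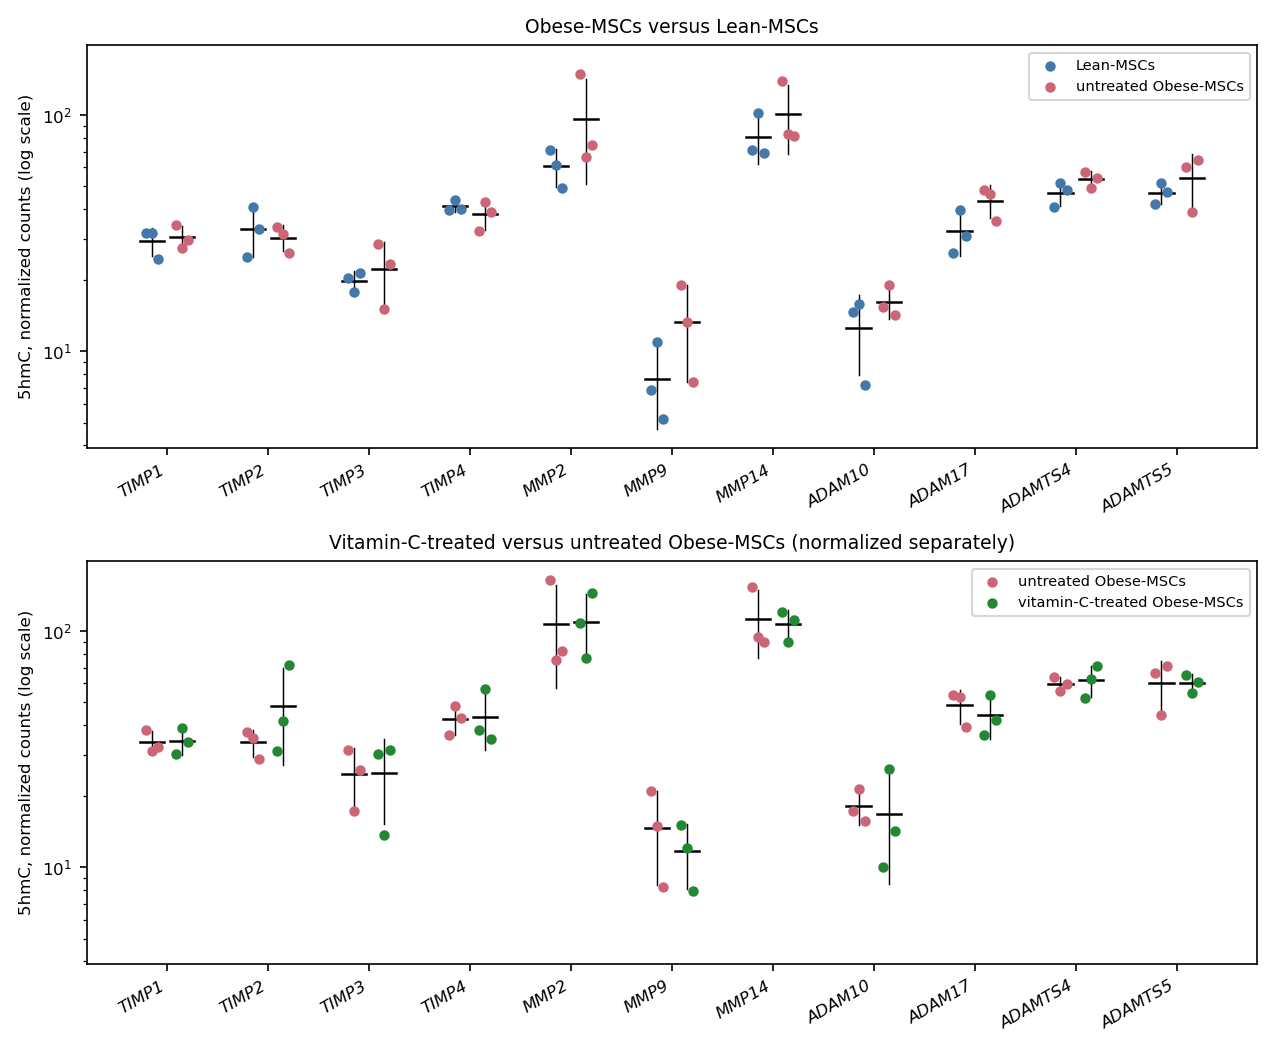
5hmC in normalized counts (log scale) of the 4 TIMPs and 7 enzymes in Obese-MSCs versus Lean-MSCs (top) and treated versus untreated Obese-MSCs (bottom), which were normalized separately. Points are libraries, horizontal lines means and vertical lines SD (n = 3). The groups overlap for all 11 genes in both comparisons, and 1 untreated library lies apart at MMP2 (149 and 165 in the 2 tables).

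Of 72 related genes in 5 lists (inhibitors and regulators, activating proteases, matrix substrates, shed membrane substrates and astacin relatives), 71 were in the tables. Between Obese-MSCs and Lean-MSCs, 1 was called with higher and 1 with lower 5hmC, beside 2.07% and 2.43% of all genes. PAPLN, papilin, an ADAMTS-like inhibitor, had 7.78, 6.61 and 8.21 in Obese-MSCs and 4.53, 4.97 and 4.12 in Lean-MSCs, and its groups did not overlap (log2 ratio 0.73). PLG, plasminogen, the precursor of an activator of MMPs, had means of 8.82 ± 3.36 in Obese-MSCs and 16.8 ± 2.94 in Lean-MSCs, a log2 ratio of -0.93, and its groups did not overlap either. RECK, a membrane inhibitor of MMPs, and FURIN, which activates several of them, had log2 ratios of -0.42 and 0.52 and were not called. Neither stands for its list. The median log2 ratio was 0.30 over the inhibitors and regulators and 0.08 over the activating proteases. With vitamin-C 1 gene was called low, beside 0.806% of all genes, and 0 high. This was ERBB4, a receptor that ADAM17 sheds, with 10.1, 9.27 and 6.18 in treated and 12, 12.9 and 16.6 in untreated libraries, a log2 ratio of -0.70. No listed gene passed the adjusted limma threshold in either comparison.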

How the data were processed

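The authors aligned paired hMeDIP-seq reads with Bowtie2 2.3.3.1 to the porcine assembly susScr 11.1, removed duplicates with Picard 1.67, counted reads over exons with HTSeq 0.9.1 and normalized the counts with edgeR 3.28.1. The deposited values are these normalized counts, a fractional signal per gene that is never negative, and not raw counts, so no test for counts was run. All 9 libraries were grouped by the submitters' labels, and all columns were used. In the table with vitamin-C, residual values below 1e-12 (645 in all) were set to 0, and 25 gene names had become dates.

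Calls followed the criteria stated in the study's methods, which are p at or below 0.05 in an equal-variance test together with group means in a ratio of 1.4 or more, or 0.7 or less, over all genes of a table. In Obese-MSCs versus Lean-MSCs they gave 391 high and 461 low genes of 18933, fewer in each direction than the study reports. The calls and shares given here are therefore not the study's own, and the cause of the difference was not tested. limma 3.58.1 (R 4.3.3) was fitted with a trend to log2(value + 1) over the upper 80% of genes by mean, with Benjamini-Hochberg adjustment. The pseudocount of 1 understates changes of low genes. Single members were tested by an exact permutation test over 20 arrangements. Log2 ratios are of group means without a pseudocount. The p-values set a difference between groups against the spread between libraries of a group, which may be technical. For limma that spread is estimated with help from the other genes. Python 3.11.15, numpy 2.4.6, pandas 2.3.3, scipy 1.17.1 and matplotlib 3.10.9 were used. The procedure was also run on simulated data, which checks the code and not the results for these genes.

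Named genes were those meeting the criteria, the 3 highest and 3 lowest log2 ratios per comparison in the upper 50% by mean, the 3 highest and 3 lowest means, any past the limma threshold, and TIMP1 to TIMP4, MMP1, MMP2, MMP9, MMP13, MMP14, ADAM10, ADAM12, ADAM17, ADAMTS1, ADAMTS4, ADAMTS5 and ADAMTS13. Others were named after their values were seen. The members were set by gene symbol and the lists by role, though with earlier results of these data known. Positions are from RefSeq (Sscrofa11.1). Exon lengths were not used here, so levels per length were not computed. Alternatives changed the test scale, variance model, thresholds, filters, pseudocount and scaling, and left out each library.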

Additional observations from a re-analysis of the deposited data

How the results depend on the processing

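Of the members called in Obese-MSCs versus Lean-MSCs (2), 0 remained at a p threshold of 0.01, while unequal variances, size factors, quantile normalization and the filter on low values each gave 2 and the test on log2(value + 1) gave 3. Leaving out each library gave 0 to 3 calls: ADAMTS17 alone without untreated Obese library 1, ADAMTSL5 and ADAMTS16 without library 2, ADAM8 alone without library 3, ADAMTSL5 alone without Lean library 7, none without Lean library 8, and ADAM2, ADAMTS7 and MMP27 without Lean library 9. With vitamin-C the 0 calls became 0 to 1, which were ADAM33 without treated library 5, ADAMTS13 without treated library 6, ADAM29 without untreated library 2 and MMP28 without untreated library 3. The cause was not tested. limma passed 0 members under every alternative run, with the smallest adjusted p of a member between 0.509 and 0.961 in Obese-MSCs versus Lean-MSCs. The median log2 ratio of the members ranged from 0.044 to 0.117 and from -0.053 to 0.016 over the libraries left out. Of 448 values of named members under an alternative, 14 changed their side of the criteria and 61 changed sign, 56 with a library left out and 5 under quantile normalization (ADAM23, ADAMTS13 and MMP1 in Obese-MSCs versus Lean-MSCs, ADAM12 and ADAMTS5 with vitamin-C). None of these sign changes was of a member in the comparison where it was called. MMP27, called in Obese-MSCs versus Lean-MSCs, changed sign with vitamin-C, from 0.03 to -0.37 without treated library 5 and to -0.05 without untreated library 2. Of the 61, 3 passed a ratio limit on the other side: MMP1 from 0.02 to -1.59 without untreated library 1 and from 0.15 to -1.38 without treated library 4, and ADAM30 from 0.58 to -0.60 without untreated library 3. No paired analysis was run because the groups share no replicate numbers and the labels tie no treated culture to an untreated one. The study's methods describe growing Obese-MSCs for another passage with or without vitamin-C, but do not say which cultures share an animal. The vitamin-C fits took the libraries as unpaired, so their SEs include any spread between animals that both groups share. With 3 libraries per group and values of about 12 to 14 at the median gene, small differences in low members such as ADAM30, ADAM5 and ADAMTS13 were not detectable.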

Other observations

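ADAMTSL2, which has no protease domain, had 4.03, 4.52 and 19.2 normalized counts in vitamin-C-treated and 0, 3.21 and 6.07 in untreated Obese-MSCs, so the log2 ratio of 1.58 came with 1 high library and overlapping groups. MMP28 had 33.4, 22.8 and 6.25 in Lean-MSCs, and its within-group SD in Obese-MSCs versus Lean-MSCs was above that of 99.1% of genes in the upper 50% by mean. ADAM8 had 10.1, 22.2 and 33.4 in treated and 19, 26.7 and 8.4 in untreated Obese-MSCs, a spread above that of 97.2% of genes, with a log2 ratio of 0.28. These genes were picked after their values were seen.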
